A study of Homo sapiens with 49 samples.

Results

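The comparison asks where the response of Ishikawa cells to ethinyl estradiol (EE) begins: 6 arrays of cells given 1 pM EE were set against 13 arrays of cells given 0.1 pM (6 arrays) or 0.3 pM (7 arrays), pooled, so that no vehicle array entered. These 19 arrays, of 49 in the series, were taken by their concentration labels. The comparison itself was chosen with earlier results of these data known. EE is the synthetic estrogen of oral contraceptives, and Ishikawa is a line from a human endometrial adenocarcinoma, here from the ECACC collection. All groups were cultured for 72 h without phenol red, in 5% charcoal-stripped serum, with ethanol at 0.1% as the solvent, and part of the medium was renewed daily. The other arrays held vehicle, 3, 10, 100 or 1000 pM EE, 6 arrays each. Whether the replicates were separate cultures is not stated in the labels, and the p-values therefore rest on the variation among these arrays alone, part of which may be technical.

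Estrogens enter the cell and bind the estrogen receptor ESR1, a transcription factor that then occupies estrogen response elements in DNA and recruits coregulators, so that some genes are transcribed more and others less. In endometrial epithelium the best known targets include the progesterone receptor PGR and GREB1, and Ishikawa cells are used as an assay line because estrogen induces alkaline phosphatase in them. The effect of a low concentration is limited by how many receptors it occupies.

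At 1 pM no gene passed the test, and the genes of the estrogen response were nevertheless mostly displaced in the direction they take at saturating concentrations. Of 11075 genes tested with limma, 0 (0%) had an adjusted p under 0.05 against the pooled 0.1 and 0.3 pM arrays, and the lowest adjusted p was 0.989. An unadjusted p under 0.05 was found for 343 genes (3.1%), of which 154 (1.39%) were higher and 189 (1.71%) lower at 1 pM. The only gene at least 1.5-fold apart was OLFM1, which encodes the secreted glycoprotein olfactomedin. The median difference over all genes was −0.01 on the log2 scale, with 43.5% of genes higher and 56.5% lower. The precision was sufficient to bound most changes: the median standard error was 0.07 (log2), and the 95% interval lay inside a 1.5-fold change in either direction for 11012 genes (99.4%). The interval reached above a 1.5-fold rise for 28 genes, 4 of them among the 101 that rose at saturating concentrations. It reached beyond a 1.5-fold fall for 35 genes, 3 of them among the 85 that fell there.

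The arrays were alike apart from 1. Their median log2 values ran from 2.96 to 3.01, and 38.7% to 39.6% of probe sets exceeded the floor of 4, under which a level was treated as not measured. In 0.3 pM replicate 2 the level of beta-actin at the 3′ end was 3.26 (log2) above that at the 5′ end, against 0.80 to 1.71 in the other 18 arrays, and for GAPDH this excess was 0.73 against −0.18 to 0.07. Its genes also deviated more from their group mean (SD 0.398, against 0.104 to 0.166). Without this array 0 genes were called with limma, 419 (3.78%) had an unadjusted p under 0.05, and the lowest adjusted p fell to 0.206, for DEPTOR. Of the epithelial markers 13 of 14 with a probe set exceeded the floor on some array, while all 10 immune and all 8 endothelial markers stayed at or under it on every array (highest 2.84 and 3.31). Of the ciliated markers 3 of 8, and of the stromal markers 4 of 10, exceeded the floor on some array. The mean level over the epithelial markers was 8.21 to 8.31 at 1 pM and 8.15 to 8.40 in the pooled arrays.

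To read the low concentration against the known response, a panel was taken from arrays that the comparison does not use. It holds the 101 genes that rose and the 85 that fell at least 1.5-fold with an adjusted p under 0.05 (limma) at 100 and 1000 pM, pooled, against vehicle (12 against 6 arrays). In that contrast 6.84% of genes passed the test at any size, 1.68% passed with at least that size, 0.912% as rises and 0.767% as falls. Its arrays included vehicle replicate 5, with a beta-actin 3′ minus 5′ difference of 4.62 (log2), and 1000 pM replicate 6, with 2.67. The mean of the panel falls on vehicle replicate 5 was 0.34 above that of the pooled arrays. A panel without both arrays is among the settings given at the end. At 1 pM 81 of the 101 rises (80.2%) were higher than in the pooled arrays, against 43.5% of all genes, with a median difference of 0.09 (log2) and quartiles of 0.02 and 0.16. Of the 85 falls 74 (87.1%) were lower, against 56.5% of all genes, with a median difference of −0.09. None was called. An unadjusted p under 0.05 was reached by 19 rises (18.8%, against 1.39% of all genes) in the direction of the panel and by 0 against it, and by 4 falls (4.71%, against 1.71%) in the direction of the panel and by 0 against it. All 6 arrays at 1 pM lay above the pooled mean for 20 rises (19.8%, against 3.74% of all genes) and below it for 5 falls (5.88%, against 4.83%, a share near the background). The genes were measured on the same arrays and are not independent, so the counts are a description with no p-value.

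**Figure D1:**
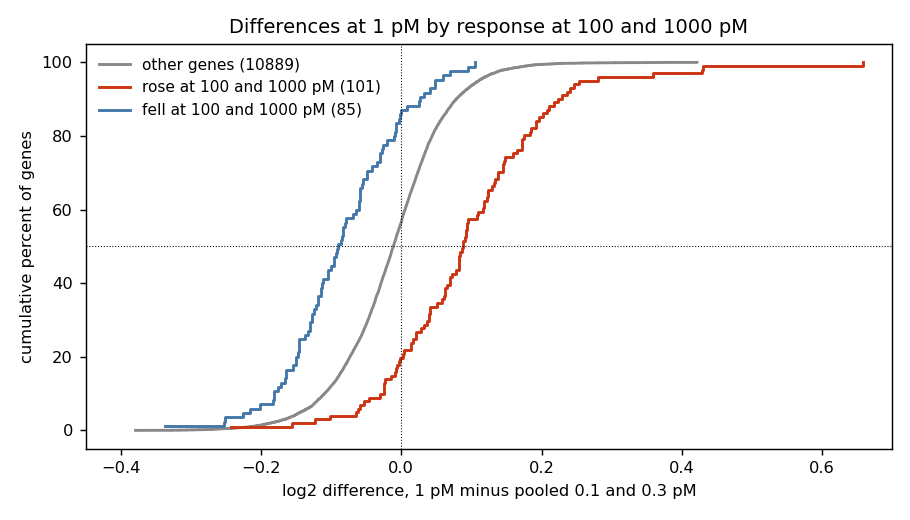
Cumulative percent of genes (vertical axis) against the log2 difference of 1 pM minus pooled 0.1 and 0.3 pM (horizontal axis), for the 101 genes that rose at 100 and 1000 pM, the 85 that fell and the other genes. The curve of the rises crosses 50% at 0.09 and that of the falls at −0.09, to either side of the other genes.

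The displacement was small beside the full response. Over the rises the difference at 1 pM had a median of 8.09% of the log2 change at saturation, and over the falls 10.9%. Each low concentration was also used alone. Against 0.1 pM 84 of 101 rises were higher and 71 of 85 falls lower, where 41.9% of all genes were higher and 58.1% lower. Against 0.3 pM 81 rises were higher and 72 falls lower, where the shares of all genes were 44.7% and 55.3%. Between the low concentrations themselves, 51 of 101 rises (50.5%) were higher and 29 of 85 falls (34.1%) lower at 0.3 than at 0.1 pM, against 49.6% and 50.4% of all genes, so that most falls stood against the direction of the panel. Without 0.3 pM replicate 2, an alternative chosen after seeing the data, 48 rises were higher and 52 falls (61.2%) lower, with no share over all genes taken beside them. In each of those comparisons limma called 0 genes. The unadjusted p was under 0.05 for 123 genes (1.11%) at 1 against 0.1 pM, for 605 (5.46%) at 1 against 0.3 pM and for 266 (2.4%) at 0.3 against 0.1 pM. Leaving out 0.3 pM replicate 2 gave 84 rises higher and 72 falls lower, with medians of 0.09 and −0.07, against 43.9% and 56.1% of all genes. Against the 6 vehicle arrays, which share the 1 pM arrays with this comparison, limma also called 0 genes, with 236 (2.13%) under an unadjusted p of 0.05.

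The mean over the panel on each array shows how far the groups overlapped. For the rises, and relative to the mean of the pooled arrays, the 13 pooled arrays ran from −0.06 to 0.09 (log2) with a median of −0.00, and the 6 arrays at 1 pM stood at 0.15, 0.15, 0.06, 0.11, 0.07 and 0.05 for replicates 1 to 6. Of the 1 pM arrays 3 lay above all 13 pooled arrays, and 2 pooled arrays lay above the lowest 1 pM array, so the groups overlapped. For the falls the pooled arrays ran from −0.15 to 0.21, where the highest was 0.3 pM replicate 2 and the next 0.08, and the 1 pM arrays ran from −0.19 to −0.03. Here 1 array at 1 pM lay below all 13 pooled arrays, and 4 pooled arrays lay below the highest 1 pM array. The mean of all genes outside the panel was −0.04 to 0.02 at 1 pM and −0.03 to 0.05 in the pooled arrays.

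**Figure D2:**
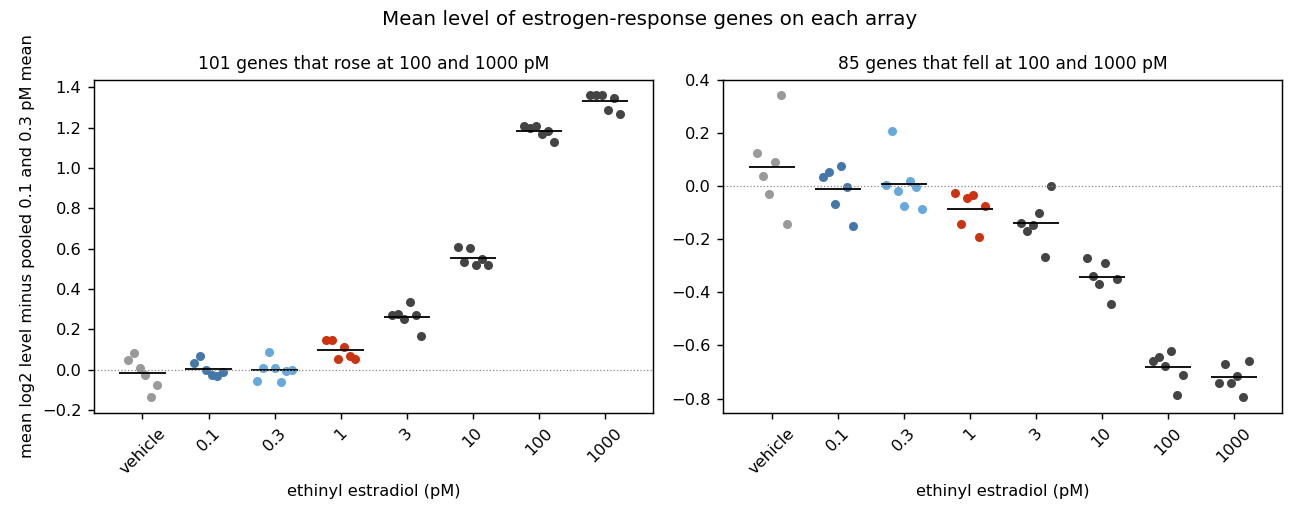
Mean log2 level over the 101 rises (left) and 85 falls (right) of the panel on each of the 49 arrays, minus the mean of the 13 pooled 0.1 and 0.3 pM arrays, by EE concentration in pM. Points are arrays and lines are group means. At 1 pM (red) the rises lay between 0.05 and 0.15 and the falls between −0.19 and −0.03. The panel was defined on the vehicle, 100 and 1000 pM arrays.

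The next concentrations were set against the same 13 pooled arrays, an addition made after the data had been seen, and so share those arrays with the comparison of 1 pM. At 3 pM 17 genes (0.153%) passed the test with limma, all higher, and at 10 pM 132 (1.19%) passed, 71 higher (0.641%) and 61 lower (0.551%). The 17 rises at 3 pM were all panel rises and included OLFM1 (1.69), PGR (1.44), ANPEP (0.76), an aminopeptidase of the cell surface, and ANO1 (0.71). The germ cell alkaline phosphatase ALPG and the retinal reductase DHRS3 were also called, but all their pooled arrays lay under the floor, so no difference is given. The panel means of the rises lay between 0.17 and 0.34 on the arrays at 3 pM and between 0.52 and 0.61 at 10 pM, so each 3 pM array stood above each 1 pM array. For the falls the 3 pM arrays ran from −0.27 to 0.00 and overlapped the 1 pM arrays, and those at 10 pM ran from −0.44 to −0.27. The highest 3 pM array of the falls and the lowest of the rises was replicate 6. It had a beta-actin 3′ minus 5′ difference of 2.75 (log2) and was kept in the test. Of the concentrations tested, 3 pM was the lowest at which single genes were called against the low concentrations.

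Among the genes that rose most at saturation, OLFM1 had the widest difference at 1 pM. Its log2 level was 4.05 at the lowest, 4.79 at the median and 5.77 at the highest in the pooled arrays, and 4.97, 5.42 and 6.16 at 1 pM. The groups overlapped: 2 arrays at 1 pM, replicates 1 and 2, exceeded all 13, and the lowest 1 pM array lay below 4 pooled arrays. The difference was 0.66 ± 0.24 (log2, SE; 6 against 13 arrays; 95% interval 0.17 to 1.15; limma unadjusted p = 0.0108, adjusted p = 0.989), with all 6 arrays at 1 pM above the pooled mean. A second probe set of OLFM1 gave means of 4.24 at 1 pM and 3.80 in the pooled arrays, close to the floor.

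PGR, the receptor through which progesterone acts and the largest rise of the panel, was near the floor at these concentrations. The pooled arrays ran from 3.42 to 4.68 with a median of 4.30, and the 1 pM arrays from 3.99 to 5.22 with a median of 4.69. Replicates 1, 2 and 3 at 1 pM lay above every pooled array, while replicates 5 and 6 lay below the pooled mean. The difference was 0.43 ± 0.20 (log2, SE; 95% interval 0.02 to 0.84; limma unadjusted p = 0.0401, adjusted p = 0.989), which is 8.64% of its change at saturation.

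The calcium-activated chloride channel ANO1 ran from 4.15 to 5.28 with a median of 4.91 in the pooled arrays and from 4.96 to 5.47 with a median of 5.26 at 1 pM. The groups overlapped, with 3 arrays at 1 pM above all 13. Its difference was 0.43 ± 0.12 (limma unadjusted p = 0.00197). GREB1, a coregulator of ESR1, ran from 4.71 to 5.38 in the pooled arrays and from 4.74 to 5.57 at 1 pM, so that 1 array at 1 pM, replicate 6, lay near the bottom of the pooled range. The difference of 0.14 ± 0.12 had an unadjusted p of 0.248 with limma. The log2 difference of GREB1 was 0.24 without 1 pM replicate 6 and 0.08 without 1 pM replicate 2. Melanophilin, MLPH, which links RAB27 vesicles to myosin, had means of 4.62 at 1 pM and 4.39 in the pooled arrays. Its difference was 0.39 against 0.1 pM but 0.09 against 0.3 pM.

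**Figure D3:**
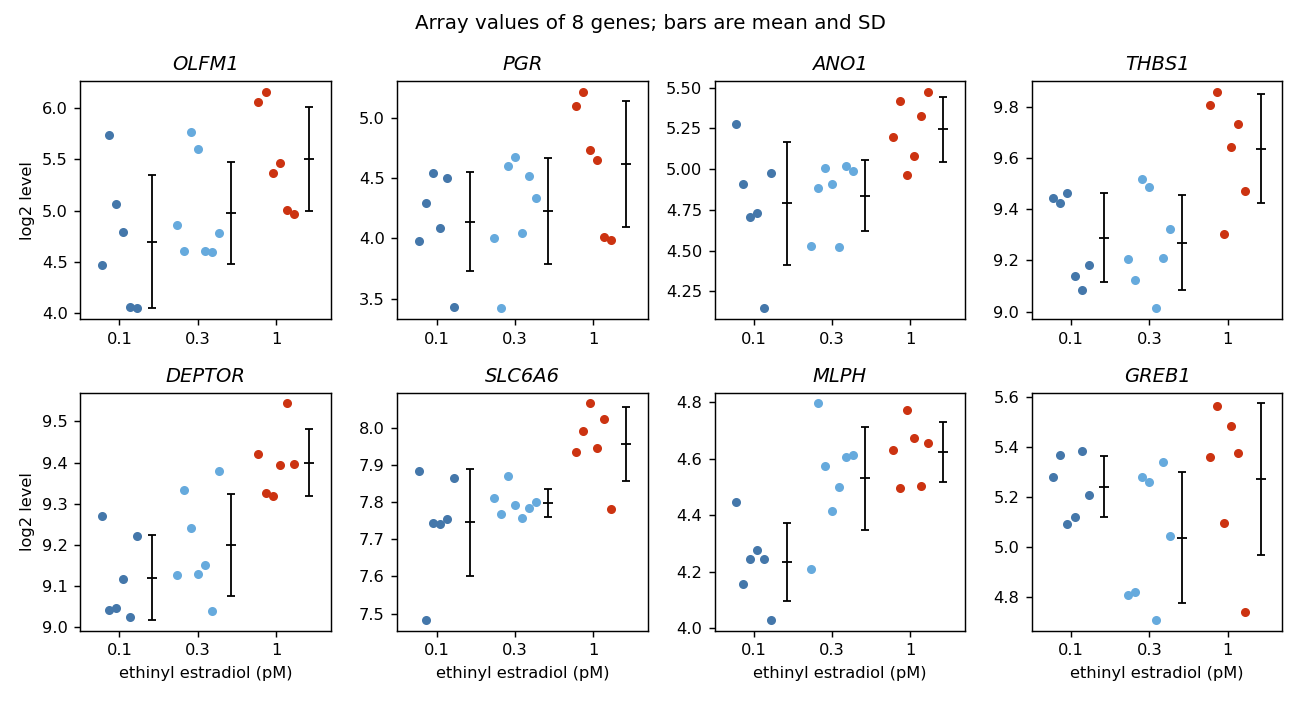
Log2 level (vertical axis) of 8 genes on each array at 0.1, 0.3 and 1 pM EE (horizontal axis); points are arrays in replicate order, and the bars beside them are the group mean and SD (6, 7 and 6 arrays). The 1 pM values (red) of all 8 genes overlap those of the lower concentrations, for example OLFM1 at 4.97 to 6.16 against 4.05 to 5.77.

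Most of the remaining large rises lay at or near the floor. EGR3, an immediate early transcription factor, NPPC, the precursor of C-type natriuretic peptide, and DHRS3 were at or under 4 on all 19 arrays, so no fold was taken. ALPG was at or under 4 on all 13 pooled arrays (3.15 to 3.81) and reached 4.03 at most at 1 pM. Its 1 pM values all lay above the pooled mean. The secretoglobin SCGB2A1 and G0S2, an inhibitor of the lipase ATGL, exceeded the floor on all 49 arrays. SCGB2A1 differed by 0.28 ± 0.18 and G0S2 by 0.07 ± 0.09 (0.16 without 1 pM replicate 2). All 8 of the largest rises with a pooled array above the floor had a difference above 0, and all 12 of the largest falls a difference below 0. Over all genes 43.5% were higher and 56.5% lower. Of the 101 rises 15 were at or under the floor on all 19 arrays. Among the 83 that exceeded it on at least 6 of them, 68 (81.9%) were higher at 1 pM. Of all 10850 genes that did so, 43.7% were higher.

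**Figure D4:**
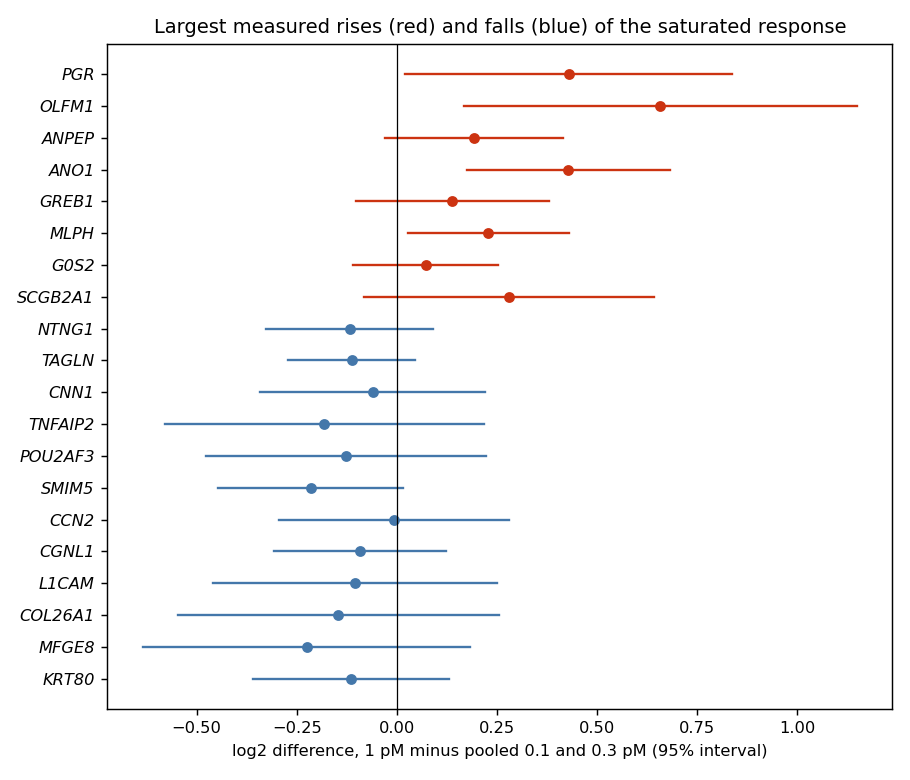
Log2 difference of 1 pM minus pooled 0.1 and 0.3 pM (points) with its 95% interval from limma (lines) for the 12 largest falls at 100 and 1000 pM (blue) and the 8 of the 12 largest rises (red) with a pooled array above the floor, ordered by that saturated change. OLFM1 (0.66), PGR (0.43), ANO1 (0.43) and MLPH (0.23) have intervals above 0, and the intervals of all 12 falls include 0.

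Of the 10 genes of lowest p, 5 were panel rises, and of the 5 outside the panel 2 were higher and 3 lower at 1 pM. The panel rises among them were DEPTOR, THBS1, POC1B, SLC6A6 and ANO1. DEPTOR, an inhibitor of the mTOR kinase, ran from 9.03 to 9.38 with a median of 9.13 in the pooled arrays and from 9.32 to 9.54 with a median of 9.40 at 1 pM. At 1 pM 4 arrays exceeded all 13, and the groups overlapped by the others. Its difference was 0.24 ± 0.05 (95% interval 0.13 to 0.34; limma unadjusted p = 0.000147, adjusted p = 0.989), or 22.3% of its change at saturation. Thrombospondin THBS1, an adhesive matrix glycoprotein that activates latent TGF-beta, ran from 9.01 to 9.52 in the pooled arrays and from 9.30 to 9.86 at 1 pM, and differed by 0.36 ± 0.08 (limma unadjusted p = 0.000222). The taurine transporter SLC6A6 differed by 0.18 ± 0.05, with 5 of 6 arrays above all 13. The centriole protein POC1B differed by 0.22 ± 0.06, with 2 of 6 above all 13.

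The other panel rises with an unadjusted p under 0.05 had differences of 0.13 to 0.25. They belonged to TGFA, a ligand of the EGF receptor (0.16 ± 0.08), the prostaglandin transporter SLCO2A1 (3.86 against 3.62, under the floor throughout), the calcium-binding protein CAPS (0.13 ± 0.06), the sulfate donor synthase PAPSS2 (0.17 ± 0.07), AFF3 (0.25 ± 0.12), PEG10 (0.17 ± 0.08, and 0.11 without 1 pM replicate 5), RHOBTB1 (0.13 ± 0.05), MPPED2 (0.15 ± 0.07), PRDM11 (0.20 ± 0.09), PXK (0.19 ± 0.09) and PRR5L (0.21 ± 0.10). PRR5L was near the floor, with means of 4.09 at 1 pM and 3.88 in the pooled arrays. The rises that stood furthest the other way were DEGS2, a sphingolipid desaturase (−0.24 ± 0.13), and the laminin chain LAMB3 (−0.16 ± 0.17), neither with an unadjusted p under 0.05. Both means of DEGS2 lay under the floor (3.26 at 1 pM and 3.51 in the pooled arrays), so its difference is uncertain. Among the falls the 4 with such a p were VIPR1, a receptor for vasoactive intestinal peptide (−0.34 ± 0.16), COPZ2 (−0.18 ± 0.09), the ubiquitin ligase MID1 (−0.15 ± 0.07) and the tight junction protein CLDN1 (−0.12 ± 0.04). VIPR1 and COPZ2 were near the floor at 1 pM (means 4.06 and 4.09). The difference of VIPR1 was −0.26 without 0.3 pM replicate 2. CLDN1 ran from 9.64 to 10.01 in the pooled arrays and from 9.61 to 9.84 at 1 pM, with 2 arrays below all 13.

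The largest falls of the panel had wide intervals. The milk fat globule protein MFGE8 was 5.35 to 7.31 in the pooled arrays and 5.41 to 6.14 at 1 pM. Its highest value came from 0.3 pM replicate 2, and its difference moved from −0.23 ± 0.20 to −0.10 without that array. COL26A1 moved likewise from −0.15 to −0.04 and TNFAIP2 from −0.18 to −0.08. The adhesion molecule L1CAM differed by −0.10 ± 0.17 and was 0.08 without 1 pM replicate 5. SMIM5 differed by −0.22 ± 0.11, with 5 of 6 arrays at 1 pM below the pooled mean. The matrix protein CCN2 differed by −0.01 ± 0.14. Except for SMIM5 and TAGLN, each of the 12 largest falls moved by over 1.5 times when some single array was left out.

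Genes listed by their function, in lists chosen with earlier results of these data known, gave few further differences. Of the 22 lists 0 members were called. Of 43 estrogen-responsive genes 28 were measured, 15 were higher and 13 lower at 1 pM, with a median of 0.01 against −0.01 over all genes. Unadjusted p-values under 0.05 were found for MLPH, OLFM1, PGR and TGFA, 4 of 28, all higher, against 1.39% of all genes. These genes are panel rises that were already counted above. The list divided by the saturated response: of its 9 members in the panel rises 8 were higher, with a median of 0.16, and the exception was carbonic anhydrase CA12 (−0.00 ± 0.11). Of the other 19 members 7 were higher, with a median of −0.03, among them at the low end the lysosomal protease CTSD (−0.36 ± 0.20). The corepressor NRIP1 differed by 0.12 ± 0.08. Without 0.3 pM replicate 2 these were −0.23 and 0.08, and without 1 pM replicate 2 NRIP1 was also 0.08. ESR1 itself had mean levels of 8.22 at 1 pM and 8.23 in the pooled arrays, and ESR2, ALPP and ALPL were not above the floor on any of the 49 arrays. Of 15 nuclear receptors and coregulators PGR was higher and the pioneer factor FOXA1 lower (−0.17 ± 0.08) with unadjusted p-values under 0.05.

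In the list of YAP, SRF and TGF-beta targets, genes of cell tension and matrix, 17 of 21 measured members were lower at 1 pM, where 56.5% of all genes were lower, with a median of −0.06 against −0.01. The kinase LATS2 (−0.15 ± 0.07) and TGFB3 (−0.24 ± 0.11) were lower and THBS1 higher with unadjusted p-values under 0.05. The panel falls hold 6 of these genes, and 5 of the 6 were lower, among them the actin-binding proteins TAGLN (−0.11 ± 0.08) and CNN1 (−0.06 ± 0.14). Both means of CNN1 lay under the floor (3.68 at 1 pM and 3.75 in the pooled arrays), so its difference is uncertain. Of 31 cell cycle genes 17 were higher, against 43.5% of all genes, with a median of 0.00. The cyclin CCNE2 (0.18 ± 0.07), the topoisomerase TOP2A (0.12 ± 0.04), the kinesin KIF11 (0.10 ± 0.05) and the CDK inhibitor CDKN1B (0.11 ± 0.05) were the 4 with an unadjusted p under 0.05, all higher, against 1.39% of all genes. Of 29 DNA replication genes 13 were higher and none had such a p in either direction, and of 18 p53 targets 14 were lower (median −0.02), likewise with none. Of 21 unfolded protein response genes the chaperone CANX (−0.08 ± 0.03) and the factor DDIT3 (−0.16 ± 0.06) were lower with such a p, but CANX was 0.01 with the mean of its probe sets, and −0.05 without 1 pM replicate 5. In the lists for heat shock, hypoxia, interferon, cholesterol synthesis, growth factors, epithelium and ciliated epithelium the members with such a p were HSPA1A (−0.19 ± 0.09), NDRG1 and IRF1 (lower, but under the floor on all 6 arrays at 1 pM, so no difference is given), CYP51A1, IGFBP7 (0.18 ± 0.07) beside TGFA, EPCAM (0.11 ± 0.05) and CAPS. The lists for receptivity, immediate early genes, ribosome biogenesis, oxidative phosphorylation, stroma and reference genes had none, and of the immune and endothelial lists no member entered the test. ACTB differed by −0.03 ± 0.04 and GAPDH by −0.01 ± 0.03.

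Genes outside the panel also reached low p-values. ALG13, a subunit of an enzyme of N-glycan synthesis, was the only gene with all 6 arrays at 1 pM (7.41 to 7.54) above all 13 pooled arrays (6.80 to 7.40), and INPP5J, an inositol phosphatase, the only one with all 6 (4.22 to 4.41) below them (4.42 to 4.96), each 0.00903% of the genes tested. Their differences were 0.26 ± 0.07 and −0.27 ± 0.08. The sterol demethylase CYP51A1 differed by 0.18 ± 0.05, the hydrolase GGH by 0.14 ± 0.04, ENDOD1 by −0.18 ± 0.04, ZNF354C by −0.32 ± 0.08 and ZFTRAF1 by −0.28 ± 0.08. At 10 pM these 7 genes stood 0.13, −0.13, 0.11, 0.07, −0.13, −0.06 and −0.14 from the pooled mean, in the same order, and none of these was called. DEPTOR, THBS1, ANO1 and SLC6A6 stood at 0.69, 0.82, 1.39 and 0.67 at 10 pM, each called. Of the 154 genes higher at 1 pM with an unadjusted p under 0.05, 26 (16.9%) were called higher and 1 (0.649%) lower at 100 and 1000 pM against vehicle, where 2.62% of all genes were called higher and 4.22% lower. Of the 189 lower genes 21 (11.1%) were called lower and 0 higher. The remaining 127 and 168 were not called at saturation.

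**Figure D5:**
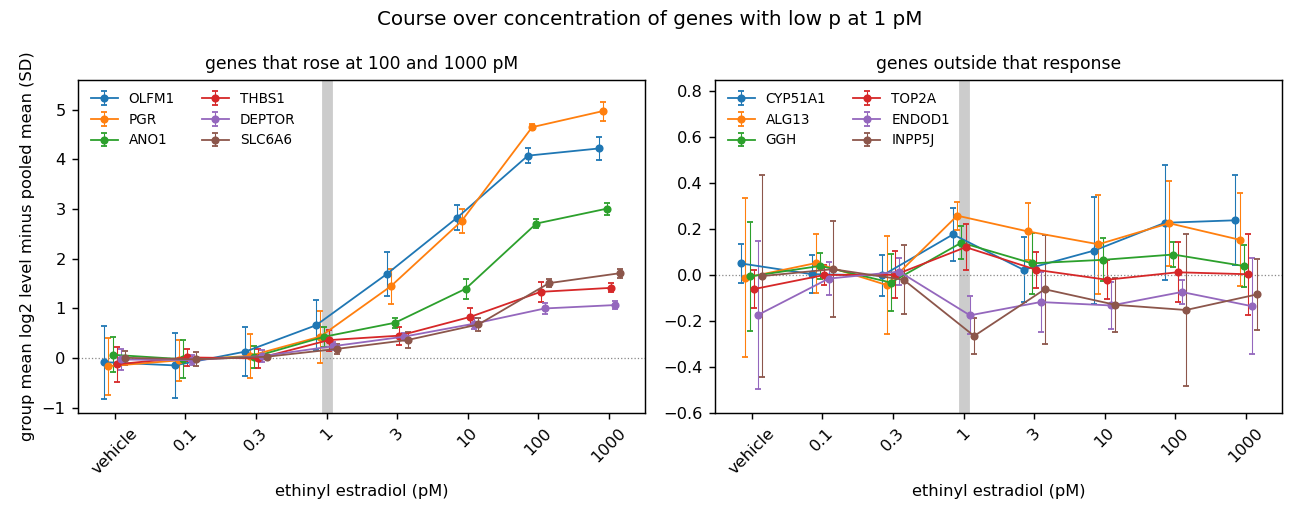
Group mean log2 level minus the mean of the pooled 0.1 and 0.3 pM arrays, with the SD between arrays, by EE concentration in pM, for 6 panel rises (left) and 6 genes outside the panel (right) chosen for low p-values or list membership; the vertical scales differ. The grey band marks 1 pM. The panel genes stood between 0.18 and 0.66 at 1 pM and higher at each concentration after it, while CYP51A1 stood at 0.18 at 1 pM, 0.02 at 3 pM and 0.11 at 10 pM.

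The promoters of the panel genes were searched for letters of the estrogen response element. Windows from 250 bases before to 50 after the start sites (RefSeq, GRCh38.p14) were found for 75 of 101 rises and 65 of 85 falls. The full element GGTCANNNTGACC was in 0 of 124 promoters of the rises and 0 of 115 of the falls, and in 0.0148% of 13498 promoters of the genes tested. Its arm GGTCA on either strand, which the full element holds on both strands, was in 32.3% of the promoters of the rises, 31.3% of those of the falls and 34.2% of those of the genes tested. For the rises with an unadjusted p under 0.05 at 1 pM it was in 14 of 32 promoters (43.8%). The 32 promoters belong to 14 of 19 genes. RHOBTB1, MPPED2, PGR, AFF3 and PRR5L each had the arm in more than 1 window, so that share counts some genes repeatedly. Overlapping windows of PGR hold the same arm and were both counted. The windows of THBS1, ANO1, OLFM1, MLPH and CAPS held no arm, and each other matched gene had a window with it. Promoters of PGR and TGFA, well known estrogen-responsive genes and both with an unadjusted p under 0.05 at 1 pM, are shown with the arm in capitals (TGACC is GGTCA on the opposite strand). Both genes lie on the minus strand, at chr11:101129028-101129327 and chr2:70553777-70554076, and both have other start sites, of which 1 window of each gene holds no arm.

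PGR: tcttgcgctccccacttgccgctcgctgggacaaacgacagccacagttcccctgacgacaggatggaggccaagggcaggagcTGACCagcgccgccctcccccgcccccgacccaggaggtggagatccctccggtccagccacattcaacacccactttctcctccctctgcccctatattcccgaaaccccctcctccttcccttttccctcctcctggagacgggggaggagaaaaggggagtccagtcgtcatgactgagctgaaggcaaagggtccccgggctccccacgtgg
TGFA: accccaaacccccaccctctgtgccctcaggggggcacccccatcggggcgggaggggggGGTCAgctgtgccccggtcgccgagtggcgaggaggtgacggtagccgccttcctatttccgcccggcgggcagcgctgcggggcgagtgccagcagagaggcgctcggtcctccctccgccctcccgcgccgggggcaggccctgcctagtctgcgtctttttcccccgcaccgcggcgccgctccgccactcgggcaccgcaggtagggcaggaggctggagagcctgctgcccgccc

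The arm begins at position −166 relative to the start site in the PGR window and at −190 in the TGFA window. No binding was measured here, and a match of letters is a description only.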

How the data were processed

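Each sample was measured on 1 Affymetrix array (HT HG-U133 Plus PM). The authors deposited log2 levels per probe set. GCRMA and Partek are named, without versions, in the submitters' processing notes. GCRMA compresses dim signals, so differences near the floor are uncertain, and the number of arrays limits the precision.

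Probe sets above 4 (log2) on 6 or more of the 49 arrays were kept, and the one with 1 symbol and the highest mean stood for its gene, which left 11075 genes. Of 54715 probe sets 40920 had 1 symbol in the platform annotation, 864 several and 12931 none. The 6 arrays at 1 pM were compared with the 13 at 0.1 and 0.3 pM in limma 3.58.1 under R 4.3.3 (with statmod 1.5.0 for weights and the package data.table, version 1.17.8, for reading), fitting an intensity trend, with Benjamini-Hochberg adjustment over all genes (threshold 0.05). The separate concentrations shared a fit of 3 groups. Errors are standard errors from limma. A single gene's range is given over arrays. The test was tried on simulated data.

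The members, the 22 lists and the comparisons were chosen with earlier results of these data known. Named genes are called genes (none here), the 12 largest rises and falls of the panel, ESR1, ESR2, PGR, GREB1, ALPP, ACTB and GAPDH. All others named were chosen after their values were seen: the genes of lowest p, panel genes and list members with an unadjusted p under 0.05, and single examples. The panel was also redefined, and the 3 and 10 pM arrays compared, after seeing the data. In no comparison did all same-numbered arrays deviate together (1 to 3 of 6 pairs correlated above 0.1), so numbers were not used as pairs. Alternatives changed the filter, variance prior, array weights, normalization, probe sets, threshold, arrays and replicate block. Figures used Python 3.11.15, matplotlib 3.10.9 and pandas 2.3.3.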

Additional observations from a re-analysis of the deposited data

Results flagged for a closer look

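In 19 of 216 groups tested (8.8%) 1 array stood apart from the rest of its group by Dixon's criterion, which chance meets in about 1 of 20 groups. In 9 of the 19 the array was 0.3 pM replicate 2, which has the high beta-actin 3′ minus 5′ difference. The part of that difference in these values was not tested. On it MFGE8 was 7.31, COL26A1 7.81, CGNL1 5.64, ACTB 12.8, INPP5J 4.89, IGFBP7 8.81, NRIP1 6.99 and CTSD 6.60, and the mean of the panel falls was 0.21 above the pooled mean. Without it the difference of 1 pM from the pooled arrays was −0.10 for MFGE8, −0.04 for COL26A1, −0.04 for CGNL1, −0.01 for ACTB, −0.24 for INPP5J, 0.14 for IGFBP7, 0.08 for NRIP1 and −0.23 for CTSD.

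At 0.1 pM replicate 2 stood apart for CYP51A1 (9.24) and SLC6A6 (7.48), replicate 3 for HSPA1A (5.33) and IRF1 (3.55), replicate 4 for AFF3 (5.63) and replicate 5 for DDIT3 (6.43). At 1 pM replicate 2 stood apart for G0S2 (6.86), replicate 3 for CNN1 (4.09), and replicate 5 for PEG10 (9.97) and PRDM11 (6.07).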

How the results depend on the processing

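The count of 0 called genes held in limma in all 17 settings tried for the main comparison (242 to 952 genes under an unadjusted p of 0.05) and in all 19 fits that each left out 1 array (216 to 423). The lowest adjusted p of DEPTOR over these settings was 0.103, with the beta-actin difference as a covariate. Settings that changed only the threshold reused the main fit. Their count of 0 was fixed by its lowest adjusted p of 0.989 (limma), so they are no further check. Over 21 settings, 4 of them chosen after seeing the data, 68 to 90 panel rises were higher and 59 to 80 panel falls lower, on panels that differed in size. Some settings kept the log2 differences and the panel of the main fit, so their counts could not differ from it. These changed only the threshold, took 0.1 and 0.3 pM as separate groups, or fitted all 49 arrays. Leaving out each array in turn gave 76 to 85 of 101 and 67 to 78 of 85. With the replicate number as a block limma called 0 genes, and 79 of 101 rises and 71 of 85 falls kept the direction of the panel; correlations of same-numbered arrays ran from −0.149 to 0.285 (1 and 0.1 pM), from −0.324 to 0.114 (1 and 0.3 pM), from −0.389 to 0.331 (0.1 and 0.3 pM) and from −0.368 to 0.263 (1 pM and vehicle), with 1, 1, 3 and 3 of 6 pairs above 0.1.

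Signs turned for 7 genes, none of them called. Of these CANX and L1CAM did not lie near 0 (−0.08 and −0.10). ESR1 was 0.018 with array weights and 0.012 with arrays centred on the median, where CCN2 was 0.0089, GAPDH 0.0033 and CA12 0.015. With the mean of probe sets GAPDH was 0.014, CANX 0.010 and CA12 0.026. CA12 was 0.0068 with array weights, 0.0015 after quantile normalization and 0.021 with the beta-actin covariate. With the replicate block, and with replicate numbers 1 to 6 alone, CCN2 was 0.015 and CA12 0.024. Leaving out 1 array gave ranges of −0.0092 to 0.060 for EGR3, −0.23 to 0.083 for L1CAM, −0.091 to 0.066 for CCN2, −0.021 to 0.0080 for ESR1, −0.024 to 0.010 for GAPDH and −0.069 to 0.049 for CA12. The cause was not tested.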
